A study of Homo sapiens with 13 samples.

Results

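The 8 genes described here encode the NEUROD, neurogenin and ATOH1 transcription factors: NEUROD1, NEUROD2, NEUROD4, NEUROD6, NEUROG1, NEUROG2, NEUROG3 and ATOH1. They were taken by name from the GENCODE release 44 annotation of hg38 and are 8 of its 20033 protein-coding genes on the main chromosomes. Open chromatin was mapped by ATAC-seq, which relies on the cutting of accessible DNA by Tn5 transposase, in H82 and H146, established human small cell lung cancer (SCLC) cell lines of the NEUROD1-driven subtype (SCLC-N) and of another neuroendocrine subtype, respectively. Cells were untreated or had received 100 nM of FHD-286, which inhibits both ATPases of the SWI/SNF chromatin remodeller (SMARCA4 and SMARCA2), over 14 days, with 4 untreated and 3 treated samples of H146 and 3 untreated and 3 treated samples of H82. Each line is a single long-cultured line, so a difference between the 2 lines is a difference between these 2 lines and not between subtypes. The data are 1 atlas per line, a list of accessible regions pooled over all of its untreated and treated libraries, with no value per sample.

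The pooling decides what can be said. No comparison between H82 and H146 has a replicate error or a test, the effect of FHD-286 cannot be read, and depth per library was unknown. The H82 atlas was the larger, with 206927 regions over 167 Mb against 174093 regions over 138.6 Mb in H146, a ratio of 1.19 in number and 1.2 in bases. The number of libraries, their depth, the DNA copies of a locus and the line itself cannot be told apart in these lists. Each value near a member is therefore set beside the same value over all protein-coding genes.

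Proneural factors are basic helix-loop-helix (bHLH) proteins that pair with E proteins such as TCF3, bind the E-box CANNTG and drive progenitors into neuronal or endocrine fates. Neurogenins and ATOH1 act early, in the choice of fate, and NEUROD factors act later, in differentiation, often as targets of the neurogenins. In SCLC, NEUROD1 marks and sustains a neuroendocrine subtype.

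The 2 lines differed most clearly at NEUROD1 and NEUROG1. Within 1 kb to either side of the transcription start site (TSS, here the 5′ end of the gene in the annotation), both genes were covered in full by an H82 region and had no H146 region. NEUROD2, NEUROD4, NEUROG2, NEUROG3 and ATOH1 had a region in this window in both lines, and NEUROD6 had none in either. Thus 2 of 8 members had a TSS region in H82 only, against 5.10% of all protein-coding genes, 5 had one in both lines (75.4% of all genes), 1 had none (17.7%) and 0 had one in H146 only (1.86%).

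The sequences just upstream of 4 of these start sites are shown because they carry that contrast: NEUROD1 and NEUROG1, open in H82 only, and, picked after their values were seen, NEUROG2, open in both lines, and NEUROD6, open in neither. Each is the 250 bases before the 5′ end of the gene, read 5′ to 3′ on the strand of the gene in hg38, and none overlaps an annotated exon of a protein-coding gene. All 250 bases lay in H82 regions and none in H146 regions at NEUROD1 and NEUROG1, all lay in regions of both lines at NEUROG2, and none at NEUROD6. Capitals mark every E-box (CANNTG, which reads the same pattern on both strands).
NEUROD1 (chr2:181680828-181681077, minus strand): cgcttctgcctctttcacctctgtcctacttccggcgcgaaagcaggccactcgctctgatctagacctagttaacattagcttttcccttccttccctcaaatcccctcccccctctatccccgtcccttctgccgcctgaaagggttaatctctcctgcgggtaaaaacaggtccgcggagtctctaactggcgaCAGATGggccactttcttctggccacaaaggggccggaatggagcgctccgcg
NEUROG1 (chr5:135535965-135536214, minus strand): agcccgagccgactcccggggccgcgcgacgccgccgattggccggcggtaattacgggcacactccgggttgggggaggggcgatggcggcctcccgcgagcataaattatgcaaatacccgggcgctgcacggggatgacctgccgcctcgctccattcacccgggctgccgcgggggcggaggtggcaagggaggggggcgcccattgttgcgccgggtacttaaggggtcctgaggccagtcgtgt
NEUROG2 (chr4:112516181-112516430, minus strand): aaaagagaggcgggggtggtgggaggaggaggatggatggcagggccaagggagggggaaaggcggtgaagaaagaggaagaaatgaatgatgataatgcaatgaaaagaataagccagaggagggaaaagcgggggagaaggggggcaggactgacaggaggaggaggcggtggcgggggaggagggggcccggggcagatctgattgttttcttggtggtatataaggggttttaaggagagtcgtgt
NEUROD6 (chr7:31340727-31340976, minus strand): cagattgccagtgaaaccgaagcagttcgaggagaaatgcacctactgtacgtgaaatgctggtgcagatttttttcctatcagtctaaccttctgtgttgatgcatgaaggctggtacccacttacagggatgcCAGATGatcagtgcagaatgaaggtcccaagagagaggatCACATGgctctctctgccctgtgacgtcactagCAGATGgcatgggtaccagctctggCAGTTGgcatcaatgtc

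The NEUROD1 sequence held 1 E-box, CAGATG, the form that NEUROD and neurogenin factors favour, with its nearer end 48 bp from the TSS. NEUROG1 and NEUROG2 held none, while NEUROD6, closed in both lists, held 4, of which 2 were CAGATG. Over all 20033 protein-coding genes, 60.5% of windows of this length held an E-box and 11% held CAGATG on either strand. NEUROD2, NEUROG3 and ATOH1, not shown, held 1 E-box each and NEUROD4 held 2. Since 2 of the 4 genes shown were picked after their values were seen, these counts are a description. Whether E-boxes go with accessibility was not tested. NEUROG1 was rich in bases and dinucleotides typical of CpG islands, with 70.4% G or C and 30 CpG sites in 250 bases, against 57.2% and 15 at NEUROD1, 56% and 7 at NEUROG2 and 49.6% and 4 at NEUROD6.

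NEUROD1 (ENSG00000162992.5, chr2:181668295-181680827, minus strand), the subtype factor of SCLC-N and a regulator of neuronal and pancreatic endocrine differentiation, had its TSS under a single H82 region of 7865 bp. It ran from 4732 bp upstream to 3132 bp downstream of the TSS. Peaks within 500 bp were merged over all libraries of a line, so a wide region may join several peaks. The width and covered share of such a region would include the bases between them. Among the 16118 genes that had a TSS region in H82, 344 (2.13%) had a wider one, and the median width was 1774 bp. The nearest H146 region began 2896 bp upstream and was 1837 bp wide, lying wholly inside the H82 region, of which H146 covered 23.4%. By the usual rule of at least 1 shared bp the NEUROD1 region counts as shared, so the count of line-only regions does not show the difference at the start site itself. All 3 annotated start positions of NEUROD1 lay in the H82 region and none had an H146 region within 1 kb. The coding sequence (1068 bp) was covered in full in H82 and not at all in H146, and 38.64% against 6.555% of its other exonic bases (UTRs) were covered.

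NEUROG1 (ENSG00000181965.6, chr5:135534282-135535964, minus strand), which specifies sensory neurons, lies within an intron of SLC25A48. Its H82 region was 4148 bp wide, from 1398 bp upstream to 2749 bp downstream of the TSS, and 1370 of 16118 genes (8.5%) had a wider one. The gene body was covered from end to end, 711 coding and 972 other exonic bases, and no base of it was covered in H146. The nearest H146 region, 425 bp wide, began 2034 bp downstream, past the 3′ end of the gene, and accounted for the 10.2% of the H82 region that H146 also covered.

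A TSS window covered in full in H82 with no H146 region occurred at 41 of 20033 genes (0.205%), of which 2 were members. The reverse, a window covered in full in H146 with no H82 region, occurred at 0 genes. The 41 are not independent loci, since CERKL, a ceramide kinase-like gene whose 5′ end lies in the NEUROD1 window, is among them and shares the region. Promoters rich in CpG are open in most cell types, and both members are of this kind. Observed over expected CpG within 1 kb of the TSS was 0.63 at NEUROD1 and 0.86 at NEUROG1. Of the genes within 0.1 of these values, 93.2% (of 6829) and 97.3% (of 3931) had a TSS region in both lines, and 2.65% and 1.5% had one in H82 only.

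**Figure D1:**
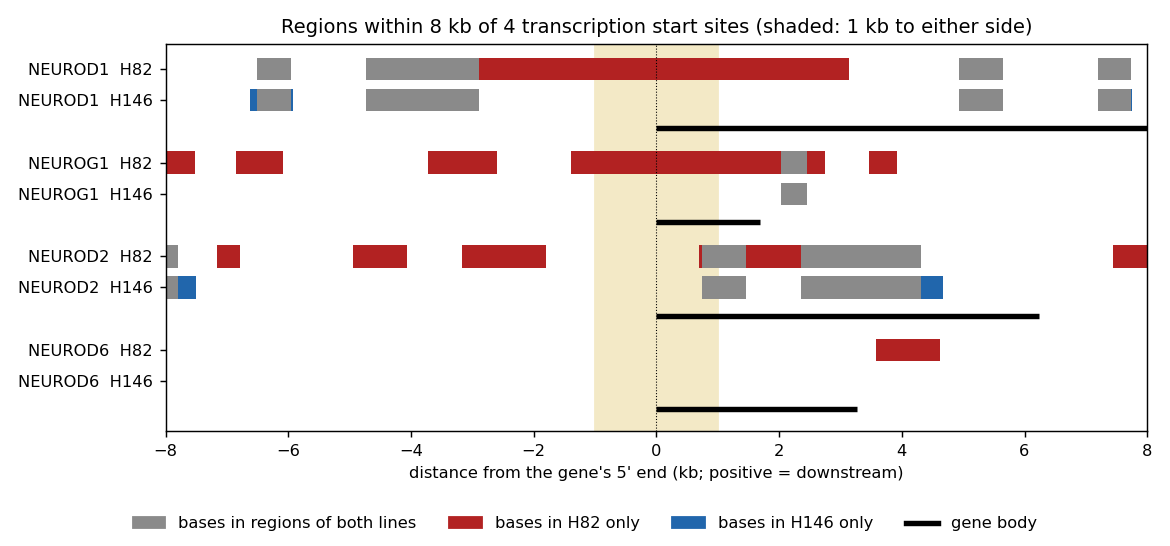
Regions within 8 kb of the TSS of NEUROD1, NEUROG1, NEUROD2 and NEUROD6 in H82 (upper row of each pair) and H146 (lower row), by distance from the 5′ end of the gene in kb; grey bases are covered in both lines, red in H82 only and blue in H146 only, and black bars are gene bodies. The shaded window of 1 kb to either side is red throughout at NEUROD1 and NEUROG1 and empty at NEUROD6.

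The remaining NEUROD genes showed less. NEUROD2 (ENSG00000171532.5, chr17:39603536-39609777, minus strand), a regulator of cortical neuron maturation, was covered over 15.34% of its TSS window in H82 and 12.49% in H146, and its 5′ end was itself outside the regions, 694 bp and 751 bp away. Its second annotated start, 1857 bp downstream, differed more. There the window was 100% covered in H82 and 55.27% in H146, and the start lay inside the H82 region of 3617 bp but 390 bp from the nearest H146 region. Its coding sequence was open in both lines, at 98.87% in H82 and 100% in H146.

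NEUROD4 (ENSG00000123307.4, chr12:55019974-55030017, plus strand), expressed transiently in differentiating neurons, had a small region over its TSS in both lines. The H82 region was 595 bp wide and held the whole of the H146 region, 303 bp. These covered 29.74% and 15.14% of the TSS window, and 0% of the coding sequence was covered in either line. NEUROD6 (ENSG00000164600.7, chr7:31337465-31340726, minus strand), a factor of cortical projection neurons, had no region over its TSS or body. The nearest lay 3575 bp from its TSS in H82, just past the 3′ end of the gene, and 32576 bp away in H146. Both genes have few CpG sites at the TSS (observed over expected 0.33 and 0.27), and of genes with like values 36.1% and 45.3% had no TSS region in either line.

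NEUROG2, NEUROG3 and ATOH1 were open at the TSS in both lines to nearly the same extent. NEUROG2 (ENSG00000178403.4, chr4:112513516-112516180, minus strand), a determinant of cortical and sensory neurons, was covered over 85.66% of the TSS window in H82 and 92.75% in H146, with regions of 2396 and 2879 bp. NEUROG3 (ENSG00000122859.5, chr10:69571698-69573422, minus strand), the determinant of pancreatic endocrine progenitors, was covered over 78.81% in each line, and the same 1577 bases were covered. ATOH1 (ENSG00000172238.6, chr4:93828753-93830964, plus strand), which specifies cerebellar granule neurons, inner ear hair cells and Merkel cells, was covered over 74.81% and 73.56%. These 3 of 8 members had at least 50% of the TSS window covered in both lines, as did 57.5% of all genes. Over the gene body NEUROG2 had 63.15% covered in H82 and 75.95% in H146, NEUROG3 79.36% and 80.75%, and ATOH1 59.81% and 49.77%. Within 10 kb of the TSS the values were 24.78% and 24.23% at NEUROG2, 15.35% and 18.61% at NEUROG3, and 9.095% and 11.26% at ATOH1. The lists hold presence and not strength, so an open TSS in both lines does not show that the gene is transcribed in either.

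**Figure D2:**
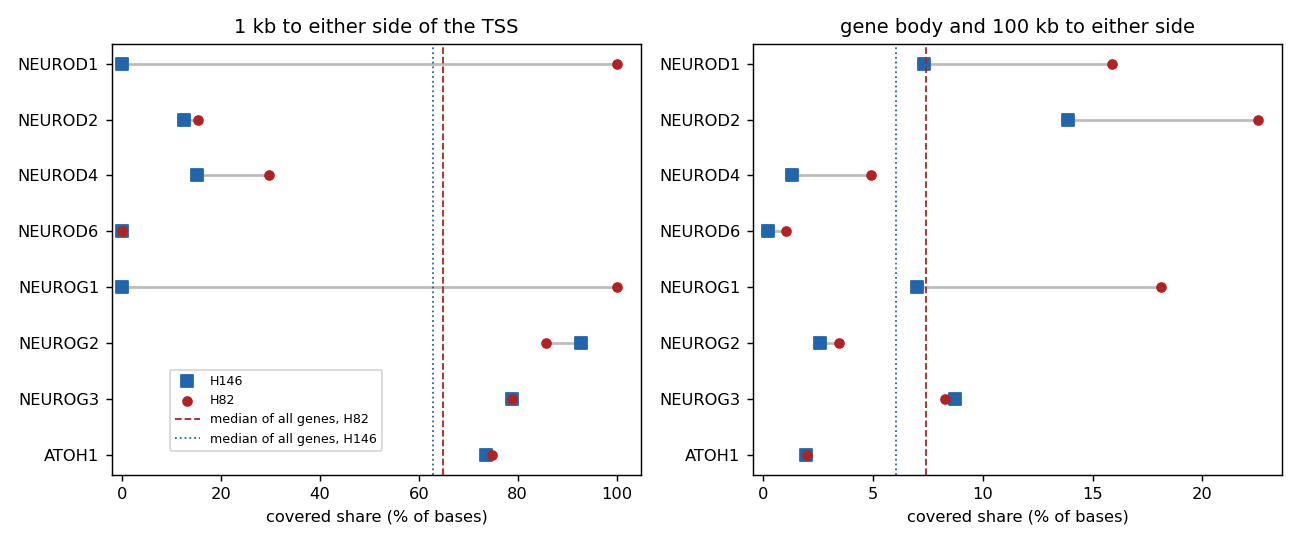
Covered share (% of bases in regions) of 1 kb to either side of the TSS (left) and of the gene body with 100 kb to either side (right) for each member in H82 (circles) and H146 (squares); vertical lines are the medians of all 20033 protein-coding genes. On the left NEUROD1 and NEUROG1 stand at 100% in H82 and 0% in H146, and on the right NEUROD1, NEUROD2 and NEUROG1 have the widest gaps.

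The order of the TSS values was not the same in the 2 lines. In H82 it ran from NEUROD1 and NEUROG1 (100%) through NEUROG2, NEUROG3, ATOH1, NEUROD4 and NEUROD2 to NEUROD6 (0%). In H146 it ran from NEUROG2 through NEUROG3, ATOH1, NEUROD4 and NEUROD2 to NEUROD1, NEUROG1 and NEUROD6, all 3 at 0%. The medians over the 8 members were 76.81% in H82 and 13.82% in H146, and over all genes 64.87% and 62.97%. The median of the differences per gene (H82 minus H146) was 2.049 points over the members, with a range of -7.096 to 100, and 0 over all genes. The gap between the medians of the 2 lines therefore does not describe a typical member. The order and the medians also depend on the start taken for NEUROD2. At its second annotated start the shares were 100% in H82 and 55.27% in H146. With no spread over samples, it cannot be said which neighbours in this order differ.

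The 2 lines also differed in covered share over wider windows that take in the gene and its flanks, mainly at NEUROD1, NEUROD2, NEUROD4 and NEUROG1. Summed over the 8 windows (1640 kb, each a gene body with 100 kb to either side), H82 had 168 regions over 156.7 kb (9.56%) and H146 had 105 regions over 88.17 kb (5.38%). The ratios, 1.6 in number and 1.78 in bases, were above the ratios of 1.19 and 1.2 of the whole atlases. The covered share was higher in H82 at 7 of 8 members, against 65.1% of all genes, and the number of regions was higher at 7 of 8, against 65.6%. Among the 7 with the higher covered share, ATOH1 was ahead by only 0.03412 points. The exceptions were NEUROG3 for the covered share and ATOH1, with 7 regions in each line, for the number.

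With this flank of 100 kb NEUROG1 had the largest gap, 18.12% covered in H82 (40 regions) against 6.992% in H146 (22 regions), a difference of 11.13 percentage points that placed it at the 94.21st percentile of all protein-coding genes. NEUROD2 followed with 22.53% (37 regions) against 13.88% (30 regions), and NEUROD1 with 15.86% (33 regions) against 7.301% (18 regions), at percentiles of 91.15 and 90.97. The order of these 3 changed with the flank. At 50 kb it was NEUROG1 (15.44 points), NEUROD1 (15.18) and NEUROD2 (8.302), and at 200 kb NEUROD2 (5.795), NEUROG1 (5.762) and NEUROD1 (5.057). These 3 windows lay above the all-gene median in both lines (7.4% in H82 and 6.041% in H146).

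NEUROD4 had 4.903% covered (18 regions) against 1.304% (6 regions), the 78.25th percentile of the difference. The other windows differed little in covered share. They were NEUROD6 with 1.01% (3 regions) against 0.1938% (1 region), NEUROG2 with 3.432% (11 regions) against 2.59% (4 regions), ATOH1 with 1.997% against 1.963% and NEUROG3 with 8.265% (19 regions) against 8.718% (17 regions). The percentiles of their differences among all genes were 51.4 at NEUROD6, 51.82 at NEUROG2, 35.73 at ATOH1 and 25.05 at NEUROG3, near or below the typical gene. NEUROD6 was among the emptiest loci in either list, at the 3.042nd percentile of all genes in H82 and the 1.33rd in H146. The median difference was 2.221 points over the members and 0.732 points over all genes.

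**Figure D3:**
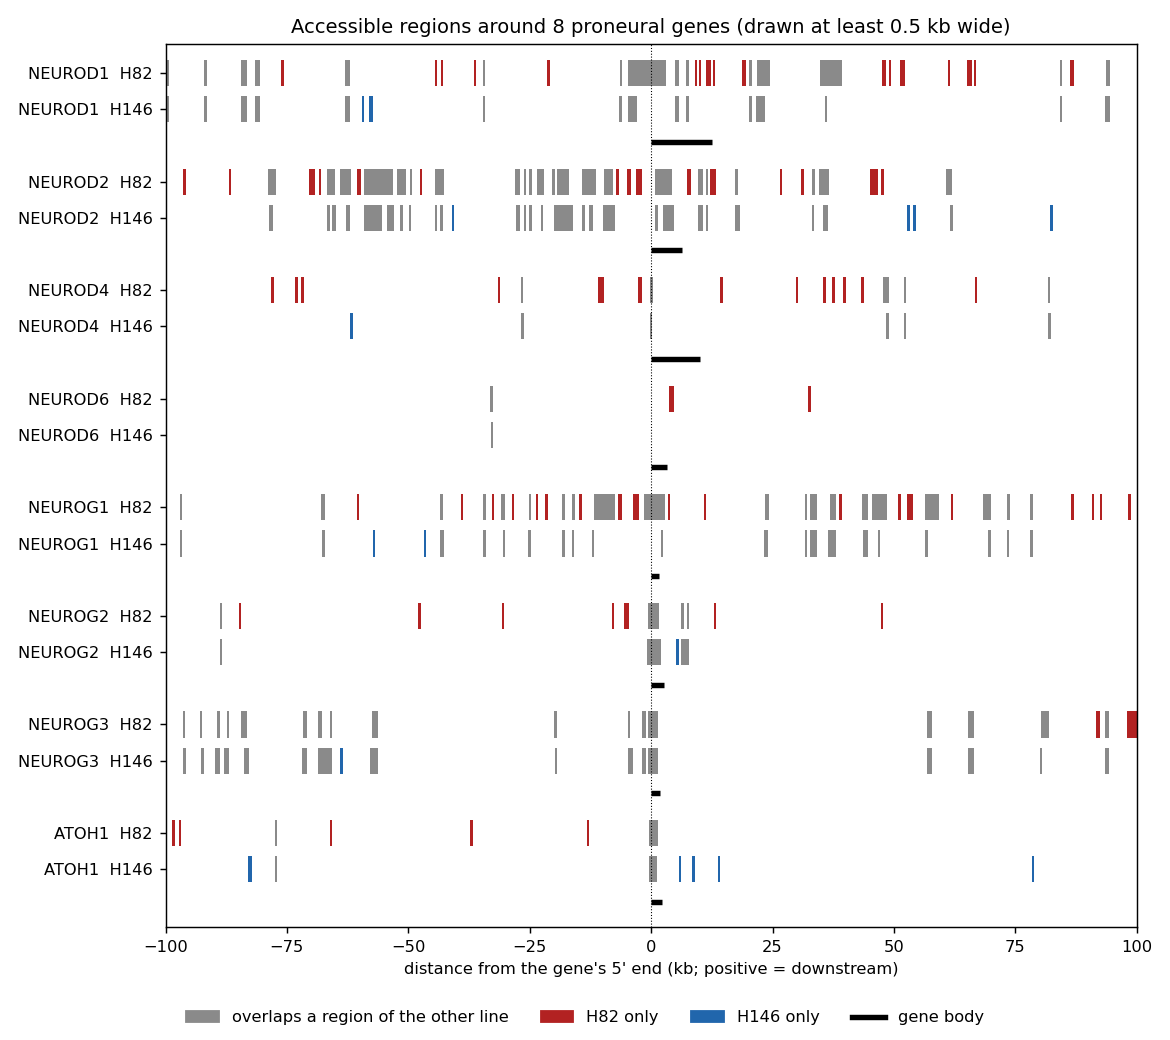
Regions within 100 kb of the TSS of the 8 members in H82 (upper row of each pair) and H146 (lower row), by distance from the 5′ end of the gene in kb; regions are drawn at least 0.5 kb wide, grey where they overlap a region of the other line by at least 1 bp, red for H82 only and blue for H146 only, and black bars are gene bodies. Red bars cluster around NEUROD1, NEUROD2, NEUROD4 and NEUROG1, and NEUROG3 is almost wholly grey.

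Line-only regions, those with no overlap of at least 1 bp with the other atlas, made up 81 of 168 H82 regions near members (48.2%, against 40.69% of the whole H82 atlas). In H146 they made up 16 of 105 (15.2%, against 29.47% of the whole H146 atlas). Thus 84.8% of the H146 regions near members had a counterpart in H82, while 51.8% of the H82 regions had one in H146. H82-only regions near members were narrower than the shared ones, with a median of 429 bp against 791 bp, and in H146 the medians were 373 and 711 bp. Over the whole atlases line-only regions were narrower still, with medians of 377 bp in H82 and 315 bp in H146. None of the 16 H146-only regions lay at the TSS or in the body of a member, and 8 were intergenic and 8 intronic.

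Around NEUROD1, 17 regions were H82-only and 2 were H146-only. The H82-only regions lay on both sides: in the gene body downstream of the TSS region (3 regions of 242 to 1001 bp), in the introns of CERKL further downstream, and in the intergenic stretch upstream. A region of 4391 bp, which began 34853 bp downstream of the TSS in a CERKL intron, was covered for 8.49% of its bases in H146, by a single region of 373 bp. The 2 H146-only regions lay upstream, 57250 and 59217 bp from the TSS.

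Around NEUROG1, 20 regions were H82-only and 2 were H146-only, and 28 of the 40 H82 regions lay in introns, each of SLC25A48. The widest was 4174 bp, began 7523 bp upstream of the TSS and was touched by H146 over 0.168% of its bases, so that it too counts as shared. Further regions of 3225 and 2828 bp, 45370 and 56466 bp downstream, were covered for 16.1% and 13.5% in H146. Within 10 kb of the TSS, NEUROG1 had 44.85% of bases covered in H82 and 2.125% in H146, against 50.56% and 18.97% at NEUROD1.

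Around NEUROD4, 13 of the 18 H82 regions were H82-only, and 5 of the 6 H146 regions were shared. The H82-only regions lay upstream and downstream of the gene, almost all intergenic, with 5 of them between 29825 and 43241 bp downstream. NEUROD2, in a gene-dense stretch, had 15 H82-only and 4 H146-only regions, and 13 of its 37 H82 regions lay at promoters of other genes, so its window reports on those genes as well. NEUROG2 had 7 H82-only regions and 1 H146-only region although its TSS was open alike in both lines. NEUROG3 had 2 and 1. ATOH1 had 5 of each, and 4 of its 5 H146-only regions lay downstream of the gene while all 5 H82-only regions lay upstream.

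The line-only region richest in CAGATG near a member, among those of at least 300 bp, is shown for each line, the strand being the plus strand of hg38 and the capitals marking every E-box. For H82 it is the central 300 bases of a 385-bp intergenic region, centred 31351 bp upstream of NEUROD4, with 3 matches to CAGATG on either strand (CATCTG is the same site on the other strand), or 7.79 per kb. For H146 it is the central 300 bases of a 392-bp intergenic region, centred 14000 bp downstream of the ATOH1 TSS, with 2 matches, or 5.1 per kb.
NEUROD4, H82-only (chr12:54988473-54988772): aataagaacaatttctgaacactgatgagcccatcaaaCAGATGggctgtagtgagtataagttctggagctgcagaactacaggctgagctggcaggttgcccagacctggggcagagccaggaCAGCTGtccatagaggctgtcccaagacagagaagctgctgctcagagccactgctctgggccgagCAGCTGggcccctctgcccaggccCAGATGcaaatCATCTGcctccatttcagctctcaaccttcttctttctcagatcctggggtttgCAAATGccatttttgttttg
ATOH1, H146-only (chr4:93842603-93842902): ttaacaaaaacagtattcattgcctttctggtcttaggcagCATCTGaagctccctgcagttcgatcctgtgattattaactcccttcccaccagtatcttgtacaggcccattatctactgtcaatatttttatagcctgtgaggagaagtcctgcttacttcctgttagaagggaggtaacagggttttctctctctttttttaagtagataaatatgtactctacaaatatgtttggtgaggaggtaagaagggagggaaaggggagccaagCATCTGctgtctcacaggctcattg

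Both were chosen for their matches, so the counts are a description. Among all H82-only regions of at least 300 bp (55561), 35.2% held at least 1 CAGATG in the central 300 bases and 0.97% held at least 3. Among the 28083 such H146-only regions 23.9% held at least 1 and 3.23% at least 2.

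Over all line-only regions near members, the density of CAGATG lay within counting error of that in all line-only regions of the same atlas. H82-only regions near members held 57 matches in 45.52 kb, 1.25 per kb (95% Poisson interval 0.948 to 1.62), and all H82-only regions held 1.24 per kb. H146-only regions near members held 4 matches in 6.912 kb, 0.579 per kb (0.158 to 1.48), against 0.895 per kb over all H146-only regions. CAGCTG, another E-box form, stood at 0.769 (0.536 to 1.07) and 0.868 (0.319 to 1.89) per kb near members, and at 0.809 and 0.878 over all line-only regions. TAATCC, the core word of OTX2, stood at 1.34 per kb (1.03 to 1.72) in H82-only regions near members and 1.26 over all H82-only regions. The intervals cover counting error only, and neighbouring matches are not independent.

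In shared regions near members the density of CAGATG was higher than over all shared regions. For CAGATG the densities were 1.08 per kb (0.896 to 1.29) against 0.821 in the H82 list and 1.03 (0.818 to 1.27) against 0.793 in the H146 list, which cover many of the same bases. CAGCTG stood at 0.857 (0.694 to 1.05) against 0.828 in the H82 list and at 1.03 (0.818 to 1.27) against 0.817 in the H146 list. Since the lower limit in the H146 list barely clears 0.817 and the interval in the H82 list holds 0.828, no difference is read for CAGCTG. The word read backwards, GTAGAC, a control of like base content, stood at 0.214 (0.137 to 0.319) against 0.2 in the H82 list. TGTTTAC, the FOXA word, was found 3 times in H82-only and 0 times in H146-only regions near members (upper limit 0.534 per kb, against 0.315 per kb over all H146-only regions).

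The broad H82 regions over NEUROD1 and NEUROG1 were not rich in CAGATG. NEUROD1 held 6 matches in 7865 bp (0.763 per kb), 5 of them outside the bases that H146 also covered, with the nearest 48 bp and 467 bp upstream of the TSS. NEUROG1 held 2 matches in 4148 bp (0.482 per kb), 728 bp upstream and 693 bp downstream, and 4 matches to CAGCTG. All H82 shared regions together held 0.821 CAGATG per kb.

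**Figure D4:**
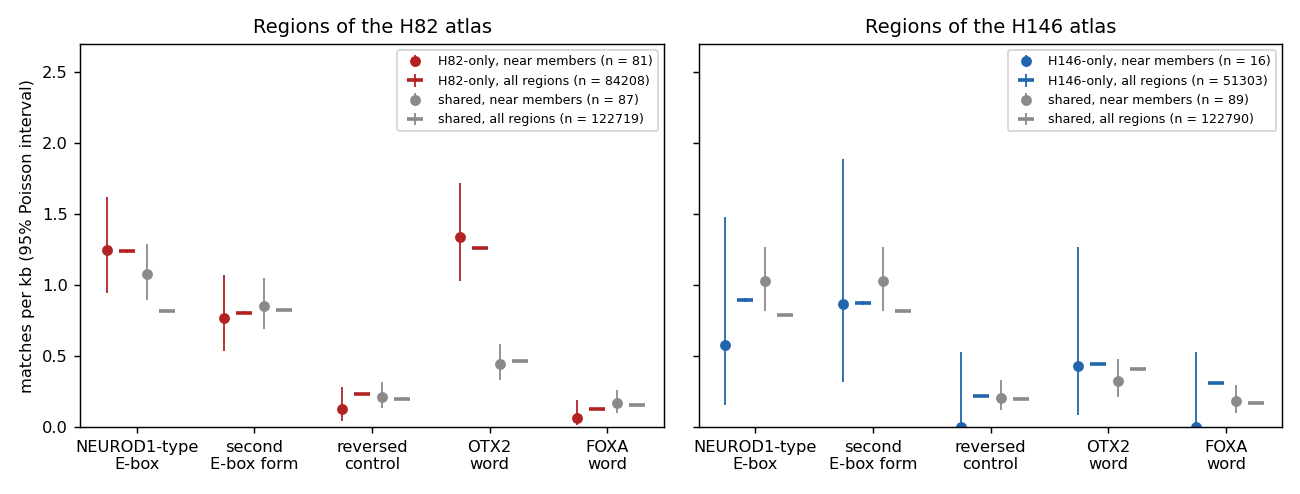
Matches per kb, both strands, of 5 short words in regions within the members' windows (circles) and in all regions of the same class (dashes), for regions found in 1 line only (coloured) and shared regions (grey), in the H82 (left) and H146 (right) atlas; bars are 95% Poisson intervals. The H82-only circle for the NEUROD1-type E-box CAGATG (1.25 per kb) sits on the dash for all H82-only regions (1.24), and the H146-only circles rest on 16 regions and have wide intervals.

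The surroundings of several members also leaned to H82. From 100 kb to 1 Mb to either side, the ratio of H82 to H146 regions was 2.31 at ATOH1, 2.13 at NEUROG1, 2.05 at NEUROG2, 1.79 at NEUROD6, 1.5 at NEUROD2 and 1.45 at NEUROD1, all above the 1.19 of the whole atlases. It was 1.09 at NEUROD4 and 1.02 at NEUROG3. At NEUROG1 the ratio in the window itself, 1.82, was below that of its surroundings, so the excess of H82 regions in number was not limited to the gene. The same held at NEUROD2 (1.23 against 1.5). ATOH1 had no excess in its window, with a ratio of 1 against 2.31 around it.

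At NEUROD4 the window ratio was 3 (18 against 6 regions) with 1.09 around it, and at NEUROD1 1.83 with 1.45 around it. By covered bases the NEUROG1 window ratio was 2.59 against 2.14 around it. That of NEUROD1 was 2.17 against 1.29 and that of NEUROD4 3.76 against 1.28. At NEUROD6 it was 5.21 against 2.14, on 3 and 1 regions, and at NEUROG3 0.948 against 0.825. The reverse held at NEUROG2 (1.32 against 2.04), ATOH1 (1.02 against 2.11) and NEUROD2 (1.62 against 1.73). By number the NEUROG2 window ratio was 2.75 with 2.05 around it. DNA copies of these stretches in the 2 lines were not measured, and their part in the ratios was not tested. At the TSS of NEUROD1 and NEUROG1 the H146 count was 0, with the nearest H146 regions 2896 and 2034 bp away.

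**Figure D5:**
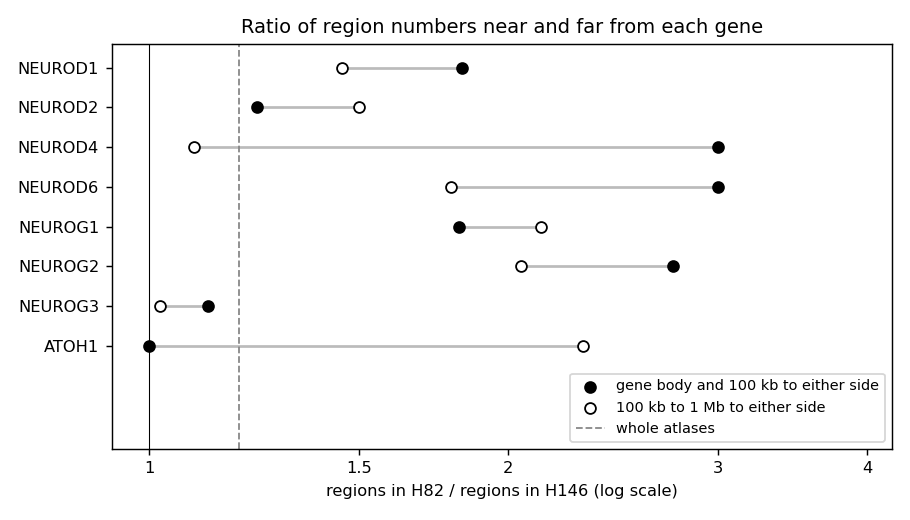
Number of H82 regions divided by the number of H146 regions (log scale) in the gene body with 100 kb to either side (filled circles) and from 100 kb to 1 Mb to either side (open circles) of each member; the dashed line is the ratio of the whole atlases (1.19) and the solid line is 1. NEUROD4 has the largest step between its window (3) and its surroundings (1.09), and ATOH1 goes the other way (1 and 2.31).

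Likeness to NEUROD1 and NEUROG1 was measured by the mean absolute difference over 6 covered shares (1, 10 and 100 kb to either side of the TSS in each line). Genes within 1 Mb of the member were left out, CERKL among them, since they share its bases, and the 3 nearest of the rest are named. For NEUROD1 they were TNNC1 (3.027 points), SLC38A5 (3.522) and PCDH8 (3.782). For NEUROG1 they were STAB1 (2.349), IGSF21 (3.028) and SLC1A7 (3.168). TNNC1 and STAB1 are near each other on chromosome 3, so they are not separate instances.

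Lists of genes that act with the proneural factors were read beside the 75.4% of all protein-coding genes that had a TSS region in both lines. Of 14 other neural bHLH genes, 11 had one in both lines, a share near that background, 2 in H82 only and 1 in neither. The 2 in H82 only were OLIG1 and OLIG2, neighbours that specify oligodendrocytes and motor neurons, with 67.77% and 92.1% of their TSS windows covered in H82. ATOH8, a distant relative of ATOH1, differed most in the wider window (29.51% against 12.79%), followed by OLIG2 (14.11% against 0.7911%).

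The 3 E proteins, the dimer partners, had a TSS region in both lines and went opposite ways around it. TCF3 had 33.74% of its wider window covered in H82 and 7.64% in H146, and TCF4 had 10.11% and 20.5%. All 10 ID, HES and HEY genes, most of which hold proneural factors in check, had a TSS region in both lines. Among them HES5 (61.65% against 15.34%) and ID3 (20.85% against 11.59%) differed most. Of 16 genes known downstream of proneural factors, 14 had a TSS region in both lines and 1 in neither. PAX6 had one in H82 only (26.14% of its TSS window). RTN1 (64.62% against 4.927%) and CNTN2 (18.08% against 6.853%) differed most. The TSS window of RTN1 was covered over 100% in H82 and 81.36% in H146. The stretch from 100 kb to 1 Mb was measured for the members only. Whether the gaps at RTN1, HES5 and other list genes belong to a wider stretch was not tested. The covered share was higher in H82 at 8 of 14, 2 of 3, 9 of 10 and 11 of 16 genes of these lists, beside the 65.1% of all genes, with median differences of 2.278, 2.337, 1.019 and 1.933 points.

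Of 7 SCLC markers, NEUROD1 alone had a TSS region in H82 only and the other 6 had one in both lines, again beside 75.4% of all genes. The covered share of the wider window was higher in H82 at 3 of 7, beside 65.1% of all genes. The median difference was -0.3469 points (H82 minus H146), the value of CHGA. It lay between the quartiles of all genes, -0.4564 and 3.038 points, so no contrast with the other lists is drawn. INSM1 is counted here and among the downstream genes. The 6 with a TSS region in both lines were the neuroendocrine genes SYP, CHGA, INSM1 and NCAM1 together with POU2F3 and YAP1. POU2F3 marks a low- or non-neuroendocrine subtype, and the authors state that YAP1 as a subtype factor has been questioned. SYP, which encodes synaptophysin, had the second largest difference after NEUROD1, with 16.96% of its wider window covered in H82 and 10.15% in H146, and 95.35% and 51.32% of its TSS window. POU2F3, picked out after its values were seen, had 32.03% of its TSS window covered in H82 and 98.75% in H146.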

How the data were processed

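The authors trimmed reads with Trim Galore 0.4.4, aligned them to hg38 with Bowtie2 2.3.4, removed duplicates with Picard, called peaks with MACS2 (version and threshold not given in the sources used here), removed blacklisted regions and merged peaks within 500 bp over all libraries of a line. The deposited atlases give the chromosome, start and end of each region; coordinates are printed 1-based. Whether reads were shifted for Tn5 is not given in the sources used here. Per the methods of the study, H146 was sequenced in 2 batches, 1 holding only controls.

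Regions were intersected with GENCODE release 44 genes in Python 3.11.15 with numpy 2.4.6, and the sharing calls were checked against bedtools 2.31.1. Sequences came from hg38 through pysam 0.24.0. Interval arithmetic was tested on simulated data. Members and gene lists were chosen with earlier results of these data known. All members are described; of the lists, genes are named whose TSS status differed, and the 2 with the largest difference in covered share. Subtype markers were planned by TSS status only. Their wider-window shares and the TSS shares of SYP and POU2F3 go beyond that plan. A further gene of the lists is not reported here and was left out of their counts. No test was made, since no file holds a value per sample.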

Additional observations from a re-analysis of the deposited data

How the results depend on the processing

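No paired analysis was possible because the files hold no value per sample, and for the same reason no sample could be left out. The number of members with a TSS region (7 in H82, 5 in H146) stayed within 1.5 times under a TSS window of 5 or 10 kb, any transcript's start, and regions of at least 500 bp; at 5 and 10 kb it was 8 in H82 and 7 in H146, since H146 regions lie within 5 kb of NEUROD1 and NEUROG1. The count of members with the higher covered share in H82 was 6 with a flank of 50 kb and 7 under the other alternatives. ATOH1 reversed at 50 kb, to -0.2622 points (H82 minus H146), from 0.03412. NEUROG3 had the lower covered share but 2 more regions in H82. Leaving out bases near other genes' TSSs removes the NEUROD1 TSS, which lies beside that of CERKL, and its difference was then 7.247 points in place of 8.556. Flank size moved it to 15.18 points at 50 kb and 5.057 at 200 kb.

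Counts of line-only regions depended on the settings. In H82, 81 became 127 with a flank of 200 kb and 48 with regions of at least 500 bp. In H146, 16 became 47 when at least 50% of both regions had to overlap, 8 with a flank of 50 kb, 33 with 200 kb and 10 with regions of at least 500 bp. H82 had more in each case. CAGATG per kb stayed within the intervals of the values reported, at 1.15 to 1.54 in H82-only and 0.312 to 0.904 in H146-only regions.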

Other observations

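Some regions had the same start and end in both atlases although the lines were merged separately. There were 19180 of them, 15.6% of the shared regions of H82, and 2109 were 200 bp wide. Near the members there were 5 of 87 (5.75%), 3 around NEUROD1 and 2 around NEUROG1, with widths of 422 to 1188 bp. Why the edges coincide was not tested.

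NEUROD1 and NEUROG1 each count as shared by overlap while their start sites do not. The 4174-bp H82 region upstream of NEUROG1 overlapped H146 over 0.168% of its bases. Counts of shared regions near these genes therefore include regions whose bases were mostly open in H82 only.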
